A study of Mus musculus with 6 samples.

Results

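The genes described here encode the enzymes and regulators of sterol and fatty acid synthesis that act under the sterol regulatory element-binding proteins (SREBPs). They were taken from a list of 34 genes in 4 groups of steps, and a gene counted as measured where a probe set named with that gene alone was present, the brightest being kept. Of the 34, 31 were measured, among 22180 genes analysed: 5 of 7 in the mevalonate steps, 11 of 11 in the late sterol steps, 8 of 8 in uptake and regulation, and 7 of 8 in fatty acid synthesis. Acat2, Idi1 and Scd2 had no such probe set and were not analysed here.

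Expression was measured in DP42 cells, a mouse myeloma line (myeloma is a plasma cell cancer). They were kept for 24 h in one of 3 ways: on their own, together with mouse B cells, or together with mouse neutrophils. The labels give the last partner as neutrophils (IMC). The B-cell co-culture is the control in the design text, and the study is about marrow neutrophils and their released DNA. Each group held 2 arrays of total RNA. Cells of the co-cultures were separated by flow sorting, and the labels mention no sort for the cells kept alone. The labels name no genotype, strain or drug for any group, they put DP42 in all 3, and they leave unsaid whether the 2 arrays of a group are separate cultures. The p-values therefore reflect only array-to-array spread, possibly technical.

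SREBPs are made as precursors in the membrane of the endoplasmic reticulum, where SCAP escorts them and INSIG proteins hold them back while sterols are plentiful. When membrane cholesterol falls, SCAP carries the precursor to the Golgi, proteases release its transcription factor domain, and genes of cholesterol synthesis, uptake and fatty acid synthesis are switched on together. SREBP-2 acts mainly on sterol genes and the main form of SREBP-1 on fatty acid genes. Plasma cells build a large endoplasmic reticulum for antibody secretion and need lipid for it, and the mevalonate pathway is the target of statins and of the bisphosphonates used against myeloma bone disease.

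Values are log2 expression after RMA, so a difference of 1 is a doubling of signal, and levels are compared only within a probe set. A gene is called changed where the adjusted p of limma, over all genes, was under 0.05. Over all genes, 11 were called between neutrophil and B-cell co-culture (0.0496%; 7 higher and 4 lower, against 18 and 44 after median centring), 331 between neutrophil co-culture and culture alone (1.49%; 29 higher and 302 lower), and 0 between B-cell co-culture and culture alone, where 358 genes were higher and 511 lower at an unadjusted p under 0.05. The genes at or above the median brightness, 11090 in number, had a median difference of 0.13 between neutrophil and B-cell co-culture, against 0.01 for all genes, and 30 of the 31 measured genes (all but Fads2) belong to this brighter part. Shares of both are given beside the main counts below. The mean of 1390 olfactory and vomeronasal receptor genes, which are silent in most tissues, moved the other way: it was 5.56 and 5.51 alone, 5.27 and 5.59 beside B cells, and 5.13 and 5.05 beside neutrophils. The 9 plasma cell markers had array means of 9.30 to 9.39 in all 3 groups, with 2 of the 9, Jchain and Tnfrsf17, below the lower quartile of each array. Prdm1 also lay below the median brightness.

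Between neutrophil and B-cell co-culture, genes of sterol and fatty acid synthesis stood higher with neutrophils throughout, by modest amounts, and none passed the test. All 31 differences were positive, as were 51.7% of all genes and 80.1% of the brighter genes, with a median of 0.26 and a range from 0.04 to 0.63. Limma called 0 of 31 at an adjusted p under 0.05, where 0.0316% of all genes were called higher, while 17 of 31 were higher at an unadjusted p under 0.05, against 8.1% of all genes and 14.4% of the brighter genes. In 28 of 31 both neutrophil arrays lay above both B-cell arrays, which held for 30% of all genes and 52.1% of the brighter genes. By steps the median was 0.30 for late sterol, 0.24 for fatty acid, 0.21 for uptake and regulation and 0.18 for the mevalonate genes, and the ranges overlapped. Without neutrophil replicate 1 the fatty acid median, 0.29, exceeded that of late sterol, 0.27. The 2 B-cell arrays were not alike. In replicate 1, 26 of 31 genes were higher than in replicate 2, against 51.3% of all genes and 76.6% of the brighter genes. The median gap was 0.13, which was also the median gap of the brighter genes. The median difference of the 31 genes was 0.318 without B-cell replicate 1 and 0.201 without B-cell replicate 2, beside 0.200 and 0.055 for the brighter genes. Either fit leaves a single B-cell array, so the B-cell group adds nothing to the estimate of spread. Passes in such a fit rest on an unreplicated array and cannot be set against those of the full fit. Without B-cell replicate 1, 16 of the 31 passed, where 11.7% of all genes and 22% of the brighter genes were called higher, and without any other single array 0 of 31 passed.

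**Figure D1:**
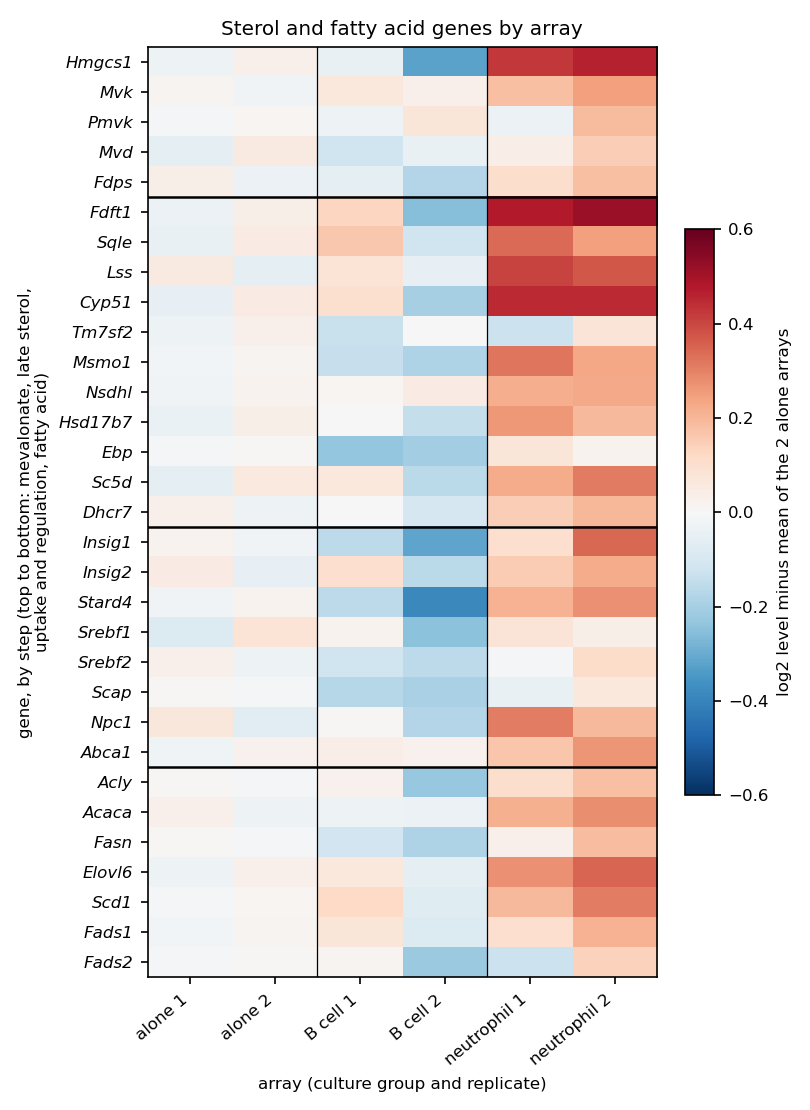
Log2 level of each measured gene in each of the 6 arrays, drawn as colour after subtracting the mean of the 2 arrays of cells cultured alone; genes run down the vertical axis by step, and arrays along the horizontal axis by group. Both neutrophil columns are red for most genes, with Hmgcs1, Fdft1, Cyp51 and Lss darkest, and the column of B-cell replicate 2 is bluest.

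The mevalonate steps turn acetyl-CoA into the isoprenoid farnesyl diphosphate. Hmgcs1 (probe set 17290173), the HMG-CoA synthase that condenses acetyl-CoA units ahead of the mevalonate-forming reductase step, stood at 9.73 and 9.80 in cells cultured alone, 9.72 and 9.44 beside B cells, and 10.19 and 10.22 beside neutrophils. Both neutrophil arrays lay above the other 4, and both B-cell arrays lay below both alone arrays. The difference from B cells was 0.63 ± 0.11 (SE), or 1.55-fold, with an adjusted p of 0.117 in limma, and it ranked 35 of 22180 genes and 21 of the 11090 brighter genes. Against culture alone it was 0.44 ± 0.11, with an adjusted p of 0.105.

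Other enzymes of these steps differed less. Fdps, which makes farnesyl diphosphate and is the enzyme that bisphosphonates block, stood at 10.31 and 10.24 alone, 10.22 and 10.10 beside B cells, and 10.38 and 10.45 beside neutrophils. Its neutrophil arrays were the highest and its B-cell arrays the lowest, with a difference of 0.26 ± 0.10 between them (limma adjusted p = 0.216). Mvd, the decarboxylase that yields isopentenyl diphosphate, stood at 8.16 and 8.26 alone, 8.09 and 8.16 beside B cells, and 8.25 and 8.36 beside neutrophils, so that the neutrophil and alone arrays overlapped. Mvk, mevalonate kinase, stood at 8.28 and 8.25 alone, 8.33 and 8.30 beside B cells, and 8.45 and 8.51 beside neutrophils, the 3 groups lying apart in that order. Pmvk, the kinase that follows it, differed least among these genes, by 0.06 ± 0.11, and its groups overlapped.

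The promoters of the genes with the largest differences are printed to show the sequence features around their starts. They are RefSeq windows of GRCm38.p6 from 250 bases before to 50 bases after the first listed transcription start, read in the direction of transcription, for the 2 genes of each step with the largest difference that the table holds. Capitals mark the letters searched on both strands: the sterol regulatory element TCACNCCAC, the NF-Y box CCAAT, the GC box GGGCGG and the E-box CACGTG. For the mevalonate steps these are the windows of Hmgcs1, at chr13:119690101-119690400 on the plus strand, and of Mvd, at chr8:122443373-122443672 on the minus strand.
Hmgcs1: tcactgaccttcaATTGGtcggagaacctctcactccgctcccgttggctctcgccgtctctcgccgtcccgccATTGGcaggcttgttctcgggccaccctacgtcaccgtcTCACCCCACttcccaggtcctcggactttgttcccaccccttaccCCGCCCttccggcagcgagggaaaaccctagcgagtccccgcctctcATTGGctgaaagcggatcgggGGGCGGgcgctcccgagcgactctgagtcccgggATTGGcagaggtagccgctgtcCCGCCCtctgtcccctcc
Mvd: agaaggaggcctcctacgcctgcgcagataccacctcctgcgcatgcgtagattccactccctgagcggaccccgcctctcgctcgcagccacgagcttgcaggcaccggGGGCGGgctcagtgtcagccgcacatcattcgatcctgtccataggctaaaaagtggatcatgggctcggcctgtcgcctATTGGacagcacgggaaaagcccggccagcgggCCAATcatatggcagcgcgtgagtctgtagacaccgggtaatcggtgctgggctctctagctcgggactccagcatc

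The Hmgcs1 window held 1 sterol regulatory element, at positions -137 to -129 from the start, with 4 NF-Y boxes and 3 GC boxes around it. The Mvd window held 2 NF-Y boxes and 1 GC box, and neither the element nor the E-box was found there.

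The late sterol steps join farnesyl units into squalene, close the ring and trim lanosterol to cholesterol, and they held the largest group of high differences. Fdft1 (probe set 17307588), squalene synthase, stood at 9.66 and 9.73 alone, 9.82 and 9.44 beside B cells, and 10.17 and 10.21 beside neutrophils. The neutrophil arrays lay clear of the other 4 while the B-cell arrays lay on either side of the alone arrays. Its difference was 0.56 ± 0.13 from B cells, or 1.48-fold, and 0.50 ± 0.13 from culture alone (limma adjusted p = 0.142 and 0.111). Cyp51 (17445308), the demethylase that starts the trimming of lanosterol, stood at 9.10 and 9.20 alone, 9.25 and 8.95 with B cells, and at 9.60 on both neutrophil arrays, with differences of 0.50 ± 0.12 and 0.45 ± 0.12.

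Lss, the cyclase that forms lanosterol, stood at 8.45 and 8.34 alone, 8.48 and 8.35 beside B cells, and 8.80 and 8.77 beside neutrophils. Here the alone and B-cell arrays covered the same range and the neutrophil arrays lay above it, 0.37 ± 0.10 higher than B cells and 0.39 ± 0.10 higher than culture alone (limma adjusted p = 0.152 and 0.105). Msmo1, a methyl sterol oxidase, stood at 8.70 and 8.73 alone, 8.57 and 8.53 beside B cells, and 9.03 and 8.94 beside neutrophils. Its B-cell arrays were the lowest and its neutrophil arrays the highest, 0.44 ± 0.09 apart, and the difference from culture alone was 0.28 ± 0.09.

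The other 7 genes of these steps ranged from 0.04 to 0.31 against B cells. Sc5d, a desaturase near the end of the pathway, differed by 0.31 ± 0.11, Hsd17b7, a ketosteroid reductase, by 0.30 ± 0.10, and Sqle, the squalene epoxidase, by 0.27 ± 0.12. Ebp, the sterol isomerase, differed by 0.27 ± 0.09 from B cells and by only 0.05 ± 0.09 from culture alone, since its B-cell arrays, at 9.49 and 9.52, lay below the alone arrays at 9.72 and 9.73. Dhcr7, which removes the last double bond in one branch, differed by 0.22 ± 0.09 and Nsdhl, a sterol dehydrogenase, by 0.19 ± 0.09. Tm7sf2, one of the mouse reductases of the ring after demethylation, was the exception among the 11: it differed by 0.04 ± 0.11, stood 0.03 below culture alone and had overlapping groups. In the other 10 both neutrophil arrays lay above the other 4 arrays, which held for 42.4% of the brighter genes and 23.4% of all genes.

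The windows shown for the late sterol steps are those of Cyp51, at chr5:4104648-4104947 on the minus strand, and Msmo1, at chr8:64733529-64733828 on the minus strand, with capitals as above.
Cyp51: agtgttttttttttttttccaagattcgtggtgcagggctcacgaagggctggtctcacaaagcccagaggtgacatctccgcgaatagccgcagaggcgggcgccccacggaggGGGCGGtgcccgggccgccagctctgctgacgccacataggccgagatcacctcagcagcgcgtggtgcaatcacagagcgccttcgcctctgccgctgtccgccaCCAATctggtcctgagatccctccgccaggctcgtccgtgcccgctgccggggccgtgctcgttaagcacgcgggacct
Msmo1: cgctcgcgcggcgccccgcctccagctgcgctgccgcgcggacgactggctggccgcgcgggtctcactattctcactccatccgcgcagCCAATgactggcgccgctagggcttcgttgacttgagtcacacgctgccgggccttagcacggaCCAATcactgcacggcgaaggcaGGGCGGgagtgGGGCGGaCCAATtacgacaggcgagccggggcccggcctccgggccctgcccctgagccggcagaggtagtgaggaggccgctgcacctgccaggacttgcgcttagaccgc

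Cyp51 held 1 NF-Y box, at positions -29 to -25, and 1 GC box. The Msmo1 window held 3 NF-Y boxes and 2 GC boxes, the nearest NF-Y box lying at positions -55 to -51.

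**Figure D2:**
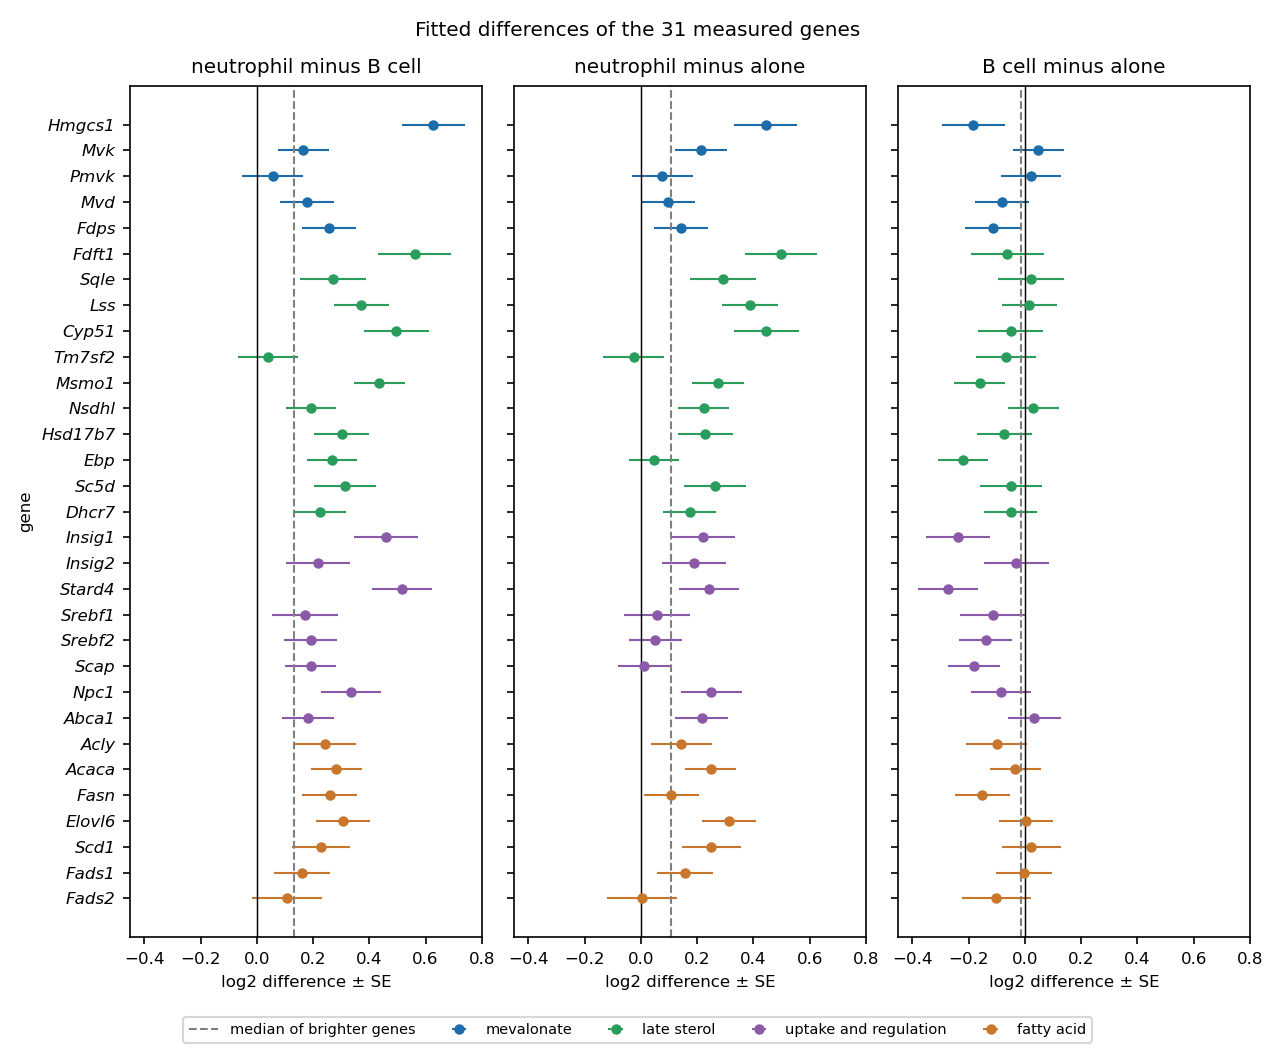
Fitted log2 difference of each of the 31 genes (horizontal axis, point ± SE from limma) in the 3 comparisons, coloured by step, with the dashed line at the median of the brighter genes. Against B cells every point lies above 0, from 0.04 for Tm7sf2 to 0.63 for Hmgcs1, while the points of B cells against culture alone lie between -0.27 for Stard4 and 0.05 for Mvk.

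Among the genes of uptake and regulation, Stard4 and Insig1 had the largest differences and Srebf1, Abca1, Srebf2 and Scap the smallest. Stard4 (17353358), which carries cholesterol between membranes and is induced by SREBP-2, stood at 9.17 and 9.21 alone, 9.03 and 8.80 beside B cells, and 9.40 and 9.47 beside neutrophils. Insig1 (17435584), the sterol-responsive anchor of SCAP, stood at 11.07 and 11.03 alone, 10.89 and 10.73 beside B cells, and 11.15 and 11.39 beside neutrophils. In both genes the 3 groups lay apart, with B cells lowest, culture alone between and neutrophils highest. The difference between neutrophils and B cells was 0.52 ± 0.11 for Stard4 and 0.46 ± 0.11 for Insig1 (limma adjusted p = 0.125 and 0.146), and against culture alone it was 0.24 ± 0.11 for Stard4 and 0.22 ± 0.11 for Insig1.

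Npc1, which exports cholesterol from lysosomes, stood at 8.81 and 8.68 alone, 8.76 and 8.57 beside B cells, and 9.05 and 8.94 beside neutrophils, 0.34 ± 0.11 above B cells. A dimmer second probe set of the gene differed by 0.10. Insig2, the less sterol-dependent relative of Insig1, stood at 8.29 and 8.19 alone, 8.34 and 8.08 beside B cells, and 8.40 and 8.47 beside neutrophils, a difference of 0.22 ± 0.11. For Abca1, which exports cholesterol from the cell and is driven by the oxysterol receptors LXR rather than by SREBPs, the values were 8.58 and 8.63 alone, 8.65 and 8.63 beside B cells, and 8.77 and 8.87 beside neutrophils. This efflux gene thus also stood highest with neutrophils, by 0.18 ± 0.09 over B cells and 0.22 ± 0.09 over culture alone (limma adjusted p = 0.286 and 0.275).

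The transcripts of the SREBPs and their escort showed smaller differences, which for Srebf2 and Scap came mostly from lower values with B cells. Srebf2 stood at 11.32 and 11.26 alone, 11.17 and 11.13 beside B cells, and 11.29 and 11.40 beside neutrophils, and Scap at 10.38 and 10.37, 10.21 and 10.18, and 10.33 and 10.44. In both the neutrophil and alone arrays overlapped and the B-cell arrays lay below them. Both differed by 0.19 ± 0.09 between neutrophils and B cells, and against culture alone by 0.05 ± 0.09 for Srebf2 and 0.01 ± 0.09 for Scap. A second, dimmer Scap probe set differed by -0.10 between neutrophils and B cells. Srebf1 stood at 8.77 and 8.94 alone, 8.88 and 8.61 beside B cells, and 8.94 and 8.89 beside neutrophils, so its alone arrays overlapped with both other groups, and it differed by 0.17 ± 0.12. The probe sets measure transcripts, and cleavage of the SREBP proteins was not measured.

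The windows for this group are those of Insig1, at chr5:28071162-28071461 on the plus strand, and Insig2, at chr1:121332540-121332839 on the minus strand, the first of 3 listed starts.
Insig1: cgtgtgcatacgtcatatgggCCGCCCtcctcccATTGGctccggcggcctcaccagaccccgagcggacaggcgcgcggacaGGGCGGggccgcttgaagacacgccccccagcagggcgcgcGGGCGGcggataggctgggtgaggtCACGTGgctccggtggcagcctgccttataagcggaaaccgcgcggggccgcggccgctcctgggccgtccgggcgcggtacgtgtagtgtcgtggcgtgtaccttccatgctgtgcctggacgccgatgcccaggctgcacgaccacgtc
Insig2: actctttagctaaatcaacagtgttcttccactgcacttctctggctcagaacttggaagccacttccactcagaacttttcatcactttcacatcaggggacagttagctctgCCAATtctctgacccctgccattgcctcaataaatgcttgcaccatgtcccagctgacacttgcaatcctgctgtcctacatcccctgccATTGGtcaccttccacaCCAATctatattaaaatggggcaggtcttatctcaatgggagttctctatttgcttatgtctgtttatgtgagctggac

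Insig1 held an E-box, at positions -101 to -96, with 3 GC boxes and 1 NF-Y box further upstream. The Insig2 window held 3 NF-Y boxes and none of the other letters.

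Fatty acid synthesis runs from cytosolic citrate through malonyl-CoA to palmitate, which is then lengthened and desaturated. Elovl6 (17402558), the elongase of palmitate, stood at 10.75 and 10.81 alone, 10.84 and 10.72 beside B cells, and 11.05 and 11.13 beside neutrophils. Acaca, the acetyl-CoA carboxylase that commits carbon to the pathway, stood at 9.91 and 9.84 alone, 9.84 on both B-cell arrays, and 10.09 and 10.16 with neutrophils. For both genes the neutrophil arrays lay above the other 4, which covered a common range. The differences between neutrophils and B cells were 0.31 ± 0.10 for Elovl6 and 0.28 ± 0.09 for Acaca, and against culture alone 0.31 ± 0.10 and 0.25 ± 0.09 (limma adjusted p from 0.160 to 0.220).

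Fasn, the synthase that builds palmitate, stood at 11.36 and 11.35 alone, 11.24 and 11.17 beside B cells, and 11.39 and 11.54 beside neutrophils. Acly, which splits citrate into acetyl-CoA, stood at 11.15 and 11.13 alone, 11.17 and 10.91 beside B cells, and 11.25 and 11.32 beside neutrophils. Their neutrophil arrays were the highest by narrow margins, and the differences from B cells were 0.26 ± 0.10 and 0.24 ± 0.11. Of the desaturases, Scd1, which makes oleate, differed by 0.23 ± 0.10 and Fads1, which acts on polyunsaturated chains, by 0.16 ± 0.10. Fads2, its partner in the same chains, stood between 6.20 and 6.56 on all arrays, near their lower quartiles of 6.20 to 6.41, and its groups overlapped.

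The windows shown for fatty acid synthesis are those of Elovl6, at chr3:129532136-129532435 on the plus strand, and Acaca, at chr11:84195188-84195487 on the plus strand, and they carry no capitals because none of the 4 sets of letters was found. Directly before its listed start the Acaca window reads like the end of an intron, so it may not be a promoter.
Elovl6: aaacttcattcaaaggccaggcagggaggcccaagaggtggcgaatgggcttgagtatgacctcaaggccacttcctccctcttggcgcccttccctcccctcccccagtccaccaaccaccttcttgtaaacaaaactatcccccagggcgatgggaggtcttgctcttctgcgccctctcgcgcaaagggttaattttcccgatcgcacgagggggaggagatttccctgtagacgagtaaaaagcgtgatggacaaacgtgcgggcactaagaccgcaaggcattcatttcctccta
Acaca: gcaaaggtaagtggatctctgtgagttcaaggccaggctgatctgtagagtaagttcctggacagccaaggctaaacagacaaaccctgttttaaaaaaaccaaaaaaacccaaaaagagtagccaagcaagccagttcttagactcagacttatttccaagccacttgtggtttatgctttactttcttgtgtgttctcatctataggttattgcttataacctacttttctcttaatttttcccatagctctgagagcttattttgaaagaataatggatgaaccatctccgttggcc

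Of the 34 listed genes 26 had a promoter window in the table. The sterol regulatory element was found in 1 of the 26 (3.85%), that of Hmgcs1, against 1.22% of 27025 promoters of all genes and 1.07% of 8718 promoters of the brighter genes. NF-Y boxes were found in 19 of the 26 (73.1%), against 37.9% and 38.8%, with 5 of 6 windows of the mevalonate steps, 8 of 9 of the late sterol steps, 4 of 6 of uptake and regulation and 2 of 5 of fatty acid synthesis. GC boxes were found in 20 of the 26 (76.9%), against 35.9% of all and 63.3% of the brighter genes, and E-boxes in 5 of the 26 (19.2%), against 7.24% and 10.4%. These are matches of letters and not of bound sites, and no match says only that the letters are not in the window. The Acaca window, which may not be a promoter, is counted among those of fatty acid synthesis. The 4 sets of letters do not contain one another.

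Against culture alone, cells from the neutrophil co-culture had 30 of 31 differences positive (54.4% of all genes and 79.7% of the brighter genes), with a median of 0.22, and the exception was Tm7sf2. Limma called 0 of 31, in a comparison that called 0.131% of all genes higher, while 16 of 31 were higher at an unadjusted p under 0.05, against 5.97% of all genes and 9.59% of the brighter genes. In 24 of 31 both neutrophil arrays lay above both alone arrays, which held for 35.6% of all and 60.1% of the brighter genes. The medians by step were 0.27 for late sterol, 0.20 for uptake and regulation, 0.16 for fatty acid and 0.14 for the mevalonate genes, and the order depended on the setting: with the receptor mean as a covariate they were 0.05, -0.06, -0.05 and 0.13. In a fit of only the 4 arrays compared, Fdft1 (adjusted p = 0.0210), Hmgcs1 (0.0263), Cyp51 (0.0275) and Lss (0.0419) passed, in a setting where 1% of all genes and 1.51% of the brighter genes were called higher. The F test of limma over the 3 groups called 42 genes (0.189%) and 0 of 31 of these, of which 13 had an unadjusted p under 0.05 against 16% of all genes and 11.1% of the brighter genes, and the lowest adjusted p was 0.0922 for Hmgcs1.

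Between B-cell co-culture and culture alone the direction was mostly the opposite and the size small. Of 31 differences 8 were positive, against 49.5% of all genes and 44% of the brighter genes, with a median of -0.07 and a range from -0.27 to 0.05, and limma called 0 of 31, where 0 of all genes were called (0%). Stard4 at -0.27 ± 0.11 and Ebp at -0.22 ± 0.09 were the 2 with an unadjusted p under 0.05, both lower, against 2.3% of all genes and 1.79% of the brighter genes. In 9 of 31 both B-cell arrays lay below both alone arrays, against 13.5% of all genes and 14.8% of the brighter genes: Hmgcs1, Fdps, Msmo1, Ebp, Insig1, Stard4, Srebf2, Scap and Fasn. In 7 of these 9, all but Srebf2 and Scap, the neutrophil arrays were above the alone arrays as well. The same held for 694 of the 3002 genes with that B-cell order among all genes, and for 636 of 1640 among the brighter genes. Without B-cell replicate 2 the median was 0.01 and 17 of 31 differences were positive. The 3 comparisons share arrays, so their values stand side by side and are not independent of each other.

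Per array, the median shift of the 31 genes from the mean of the alone arrays was 0.01 and -0.16 beside B cells, and 0.17 and 0.23 beside neutrophils. The brighter genes shifted by 0.05 and -0.08, and by 0.09 and 0.12. The 31 genes therefore lay 0.04 and 0.08 below the brighter genes on the B-cell arrays and 0.07 and 0.11 above them on the neutrophil arrays. Late sterol genes lay furthest above, by 0.17 and 0.11, and the mevalonate genes by 0.01 and 0.07.

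**Figure D3:**
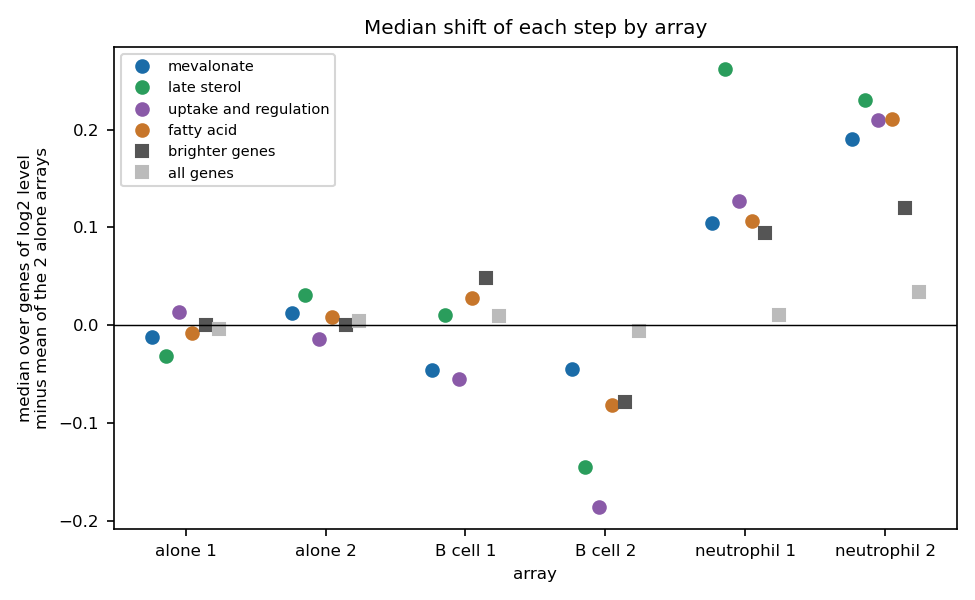
Median over the genes of each step of the log2 level minus the mean of the 2 alone arrays (vertical axis), for each of the 6 arrays (horizontal axis), with squares for the brighter genes and for all genes. On the neutrophil arrays all 4 steps lie above the brighter genes, the late sterol genes at 0.26 and 0.23, and the lowest median, -0.19 for uptake and regulation, is on B-cell replicate 2.

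The size of these medians changed with the scaling and when the array mean of the receptor genes was a covariate. That mean was lowest on both neutrophil arrays, at 5.13 and 5.05 against 5.27 to 5.59 on the others. The covariate therefore cannot be separated from the neutrophil group in this design. Quantile normalisation gave a median of 0.17 against B cells and 0.16 against culture alone, and the receptor mean as a covariate gave 0.14 and 0.04, with 25 and 16 of 31 differences positive. In those fits the median of the brighter genes was 0.06 and 0.06, and -0.02 and -0.07. The gap between the 31 genes and the brighter genes was 0.13 against B cells and 0.11 against culture alone in the fit reported, and ran from 0.09 to 0.16 and from 0.07 to 0.11 over 16 alternatives. Several of the alternatives cannot move it. Median centring shifts both medians alike. The replicate blocks, trend and robust eBayes, and the fit of only the arrays compared repeat both medians. So does leaving out an array of the group not compared. Fits of the brighter genes only or without receptor genes keep the difference of every gene they hold. Their gaps were 0.127 and 0.124 against B cells, and 0.110 and 0.106 against culture alone.

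**Figure D4:**
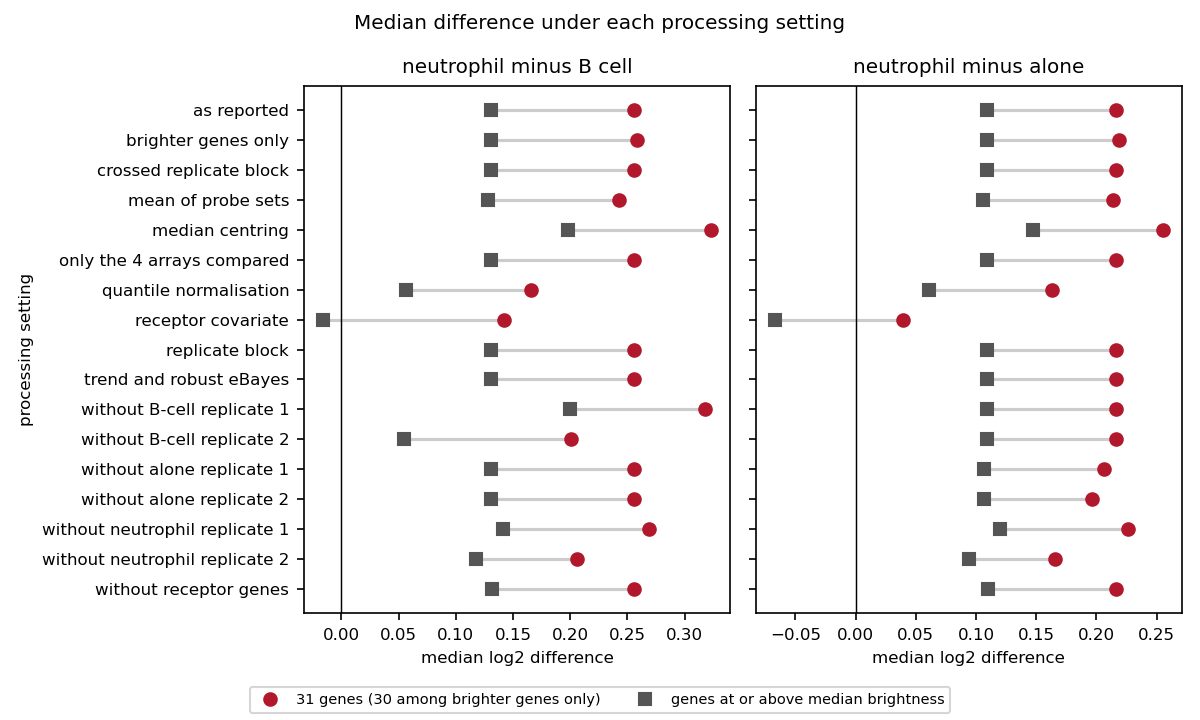
Median log2 difference (horizontal axis) of the sterol and fatty acid genes (circles) and of the genes at or above the median brightness (squares) under each processing setting (vertical axis), for neutrophils against B cells and against culture alone. The 2 medians move together, from 0.14 to 0.32 and from 0.04 to 0.26 for the circles, and the circles lie to the right of the squares in every setting. Settings that change only the estimate of the spread, or leave out an array of the group not compared, repeat the reported medians by construction.

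Other genes of lipid handling were read from 6 further lists, of which 0 of 80 measured genes passed in limma in any of the 3 comparisons. Of all genes 0.0496% passed between neutrophils and B cells, 1.49% between neutrophils and culture alone and 0% between B cells and culture alone. The list medians below stand beside a median of 0.13 for the brighter genes between neutrophils and B cells. For 8 genes of other sterol steps the median difference between neutrophils and B cells was 0.15, with Arv1, a sterol transport factor, at 0.35 ± 0.11 and Ch25h, which makes an oxysterol that blocks SREBP processing, at -0.28 ± 0.11. Ch25h was a dim probe set below the median brightness, at 6.74 and 6.62 alone, 6.89 and 6.82 beside B cells and 6.44 and 6.71 beside neutrophils, and it differed by -0.11 ± 0.11 from culture alone. For 10 genes of SREBP processing and INSIG turnover it was 0.13, with Rnf139, a ligase of the endoplasmic reticulum, at 0.34 ± 0.12 and Erlin1, which restrains SREBP activation, at 0.30 ± 0.12. For 15 genes of sterol trafficking, storage and LXR action it was 0.17, with the sterol exporter Abcg1, like Abca1 a target of LXR, at 0.42 ± 0.10 and the lipoprotein receptor Scarb1 at 0.25 ± 0.11.

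In 20 further genes of lipid assembly the median was 0.09, with the acyl-CoA synthetase Acsl4 at 0.34 ± 0.12 and the acyltransferase Agpat2 at 0.30 ± 0.09. For 12 genes that use isoprenoids, in prenylation and the making of dolichol and ubiquinone, it was 0.20, with Fnta, a farnesyltransferase subunit, at 0.41 ± 0.19 and Rabggtb at -0.34 ± 0.55, whose arrays differed more within groups than between them. In 15 genes of fatty acid oxidation it was 0.12, with Etfdh at 0.32 ± 0.13 and Acadvl, which starts the oxidation of long chains, at 0.30 ± 0.10 from B cells and -0.02 from culture alone. Against culture alone the medians of the 6 lists ran from 0.05 to 0.18, beside 0.11 for the brighter genes.

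Markers of the partner cells were read beside these results. The 20 neutrophil markers had array means of 6.75 and 6.83 alone, 6.79 and 6.89 beside B cells, and 7.15 and 7.19 beside neutrophils, and their summed linear signal was 3832 and 3886, 3797 and 3960, and 4429 and 4546. Of the 20, Ngp rose against B cells and 5 rose against culture alone in limma (Ngp, Retnlg, Lcn2, S100a8 and Elane). Of all genes 0.0316% and 0.131% were called higher. Both neutrophil arrays lay above both B-cell arrays in 14 of 20 (30% of all genes), and below them in 1. They lay above both alone arrays in 14 of 20 (35.6% of all genes), and below them in 0. Of these markers 3 to 7 lay below the lower quartile of an array. RMA values have no 0, so none of them can be read as absent. The 12 B-cell markers had means of 9.45 to 9.51 over all 6 arrays. Cells cultured alone already had 9.48 and 9.45, so this mean cannot show whether B cells were carried over. The 13 markers of monocytes and macrophages had means of 6.95 to 7.07 over all 6 arrays. Ly6c2 was the only one of these 13 that rose, by 1.51 against B cells and 1.40 against culture alone (limma adjusted p = 0.00346 and 0.00226). The part of the partner cells in the values of the lipid genes was not tested, and in bulk RNA a change in the share of cells cannot be told apart from a change in RNA per cell.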

How the data were processed

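RNA of 6 samples was hybridised to arrays. The deposited values were log2 expression, one per probe set, and per the submitters' processing notes the authors used RMA; software versions are not given in the sources used here. RMA is meant to even out distributions between arrays, yet the medians of the deposited arrays still ran from 7.09 to 7.22. It also compresses signals near background, and the number of arrays limits the precision. The platform annotation gave a single gene for 23521 of 41345 probe sets. The brightest per gene over the 6 arrays was kept (22180 genes), and 2 members had another probe set.

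Group means were fitted with limma 3.58.1 (R 4.3.3) to all 6 arrays (residual df 3, prior df 5.547), with eBayes, two-sided tests and Benjamini-Hochberg adjustment over all genes. The fit was tested on simulated data with independent noise around the mean of each gene. No shift between arrays or with brightness was simulated, so that test does not cover such shifts. The members, lists and rules were chosen with earlier results of these data known. Every measured member is named. Values of all arrays are given for the 4 members per step with the largest difference between neutrophils and B cells and for 6 fixed genes (Insig1, Srebf1, Srebf2, Scap, Abca1, Fasn), and other lists by their 2 largest differences. Promoters are RefSeq's of GRCm38.p6. A planned comparison of protein sequences was not made, since no protein table was used here. The alternatives are given in the closing section.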

Additional observations from a re-analysis of the deposited data

How the results depend on the processing

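The groups held 2 arrays each, so single arrays decided several counts. Where an array was left out, its group held a single array and added nothing to the estimate of spread. Counts from those fits cannot be set against those of the full fit. RMA values carry no detection calls, which limits what can be said of dim probe sets. Between neutrophils and B cells, where 11 genes and 0 members were called, the genes called were 91 among the brighter genes only, 62 with median centring, 33 with trend and robust eBayes, 30 at a threshold of 0.10, 7 with quantile normalisation, 1 with only the 4 arrays compared and 0 with the receptor covariate. Members called were 3 among the brighter genes only (Hmgcs1, Msmo1 and Stard4) and 1 with trend and robust eBayes (Hmgcs1). Leaving out each array in turn gave 1 to 5453 genes and 0 to 16 members, the highest counts without B-cell replicate 1.

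Between neutrophils and culture alone, where 331 genes and 0 members were called, the genes called were 1338 (4 members) with only the 4 arrays compared, 750 at a threshold of 0.10, 555 with median centring, 109 without receptor genes, 90 among the brighter genes only, 70 with quantile normalisation and 0 with the receptor covariate. Leaving out each array gave 5 to 1338 genes and 0 to 4 members, with 5 and 7 genes without alone replicates 1 and 2, 113 and 9 without neutrophil replicates 1 and 2, and 1338 genes and 4 members without either B-cell replicate. Between B cells and culture alone 1 gene was called among the brighter genes only and 1 with trend and robust eBayes, with 0 of the members in any alternative. The F test, with 42 genes and 0 members, called 72 genes among the brighter genes only, 323 with median centring, 155 with trend and robust eBayes and 325 at a threshold of 0.10, each with 1 member, then 18 with quantile normalisation, 0 with the receptor covariate, and 0 to 2390 genes with 0 to 6 members when each array was left out.

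The median difference of the members between neutrophils and B cells was 0.166 with quantile normalisation and 0.142 with the receptor covariate, and 0.201 to 0.318 when each array was left out. By step, the receptor covariate gave 0.128 for the mevalonate, 0.164 for the late sterol and 0.002 for the fatty acid genes, quantile normalisation gave 0.198 for the late sterol genes, and median centring 0.244 for the mevalonate genes. Leaving out each array gave 0.133 to 0.231 for the mevalonate, 0.231 to 0.413 for the late sterol, 0.177 to 0.328 for the uptake and regulation and 0.131 to 0.294 for the fatty acid genes.

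Against culture alone the member median was 0.255 with median centring, 0.163 with quantile normalisation, 0.039 with the receptor covariate and 0.166 to 0.226 when each array was left out. For the mevalonate genes it was 0.180 with median centring and 0.094 with quantile normalisation. The late sterol genes gave 0.304 with median centring, 0.182 with quantile normalisation and 0.047 with the receptor covariate. Uptake and regulation gave 0.242, 0.162 and -0.055 in the same 3 settings, and fatty acid synthesis 0.096 with quantile normalisation and -0.045 with the receptor covariate, so both turned direction with that covariate, and the cause was not tested. Leaving out each array gave 0.104 to 0.190, 0.206 to 0.291, 0.127 to 0.210 and 0.107 to 0.211 for the 4 steps in that order.

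Between B cells and culture alone the member median ran from -0.161 without B-cell replicate 1 to 0.009 without B-cell replicate 2, where it turned direction. The mevalonate median was -0.110 with median centring, -0.074 with quantile normalisation and -0.073 with the receptor covariate. Leaving out each array gave -0.082 to -0.029 for the mevalonate, -0.145 to 0.010 for the late sterol, -0.186 to -0.055 for the uptake and regulation and -0.082 to 0.028 for the fatty acid genes.

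Same-numbered arrays of 2 groups deviated from their group means with correlations of -0.074 (alone and B cells), 0.065 (alone and neutrophils) and -0.151 (B cells and neutrophils), so the numbers were not taken as pairs. The replicate block gave 9 genes between neutrophils and B cells and 373 between neutrophils and culture alone, with 0 members in both. A crossed replicate block, chosen after seeing the data, gave 299 and 742 genes and 1 and 0 members, and 481 genes with 1 member in the F test.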
